A study of Mus musculus with 4 samples.

Results

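The CC chemokine ligands described here are 10 genes, Ccl2, Ccl3, Ccl4, Ccl5, Ccl6, Ccl7, Ccl9, Ccl12, Ccl20 and Ccl24, out of 36691 genes named on the array. They were taken by name, by a list drawn up with earlier results of these data known, and every probe that carries one of these names was read. Of the 10 genes, 8 gave a signal that the scanner software marked as well above background on 1 array or more, and 7 did so on all 4 arrays. Ccl12 and Ccl24 did so on none.

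Primary hepatocytes of C57BL/6 mice were harvested 24 h after seeding, and their RNA was labelled with a single dye and hybridised to oligonucleotide arrays. The 4 groups were untreated control hepatocytes, untreated Drp1LiKO hepatocytes, control hepatocytes given 200 μM palmitate, a saturated fatty acid, and Drp1LiKO hepatocytes given 200 μM palmitate. In Drp1LiKO mice both floxed alleles of Dnm1l, which encodes Drp1, a protein that divides mitochondria, are recombined by Cre under the albumin promoter, which is active in hepatocytes. The methods name floxed littermates without Cre as controls, so that the floxed alleles are shared by all groups, whereas a field of the labels calls the same samples wild-type. The cells were collected from the liver digest as a low-speed pellet, in which other liver cells can remain. The age of the animals and the length of the palmitate exposure on these arrays are not given in the sources used here. Each group has 1 array, so the variation between animals or cultures is unknown, and a difference between 2 arrays has no p-value. According to its label, the untreated control array was also deposited as a sample of a different series. Both untreated arrays share a slide and both palmitate arrays share another, so palmitate and slide cannot be told apart.

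Levels are given as log2 intensity relative to the 75th percentile of the same array, which lay at an intensity between 424 and 542. Between 47.0% and 53.1% of the spots were well above background, and 0 spots were saturated. The error given beside a difference comes from the error model of the scanner software for the spots themselves and holds no biological spread. Dnm1l, read as a check of the labels, was lower on the arrays labelled Drp1LiKO, with a difference of −1.35 without palmitate and −1.42 with it.

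Chemokines are small secreted proteins that attract leukocytes by binding G protein-coupled receptors on the target cell. In the CC family the first cysteines of the protein stand next to each other, and most members recruit monocytes, T cells or other mononuclear cells rather than neutrophils. In the injured liver hepatocytes, Kupffer cells, endothelial cells and stellate cells can all release them, and many of the genes are induced through NF-κB.

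Of the 10 genes, 8 lie on chromosome 11, in the order Ccl2, Ccl7, Ccl12, Ccl5, Ccl9, Ccl6, Ccl3 and Ccl4, while Ccl20 lies on chromosome 1 and Ccl24 on chromosome 5. RefSeq promoter sequences (GRCm38.p6) were at hand for 5 of the 10 genes. Among these, Ccl20 was the member furthest below control in Drp1LiKO, while Ccl9 and Ccl3 were both higher in each comparison. Ccl9 was well above background on all 4 arrays, and Ccl3 in every group but untreated control. The 250 bases before the annotated start of these 3 genes are shown. Each is written on the strand of its gene, and capitals mark a match on either strand to the kappaB consensus, the binding motif of NF-κB, or to the AP-1 motif TGANTCA, or a match to the TATA box TATAAA on the gene's own strand.
Ccl20 (chr1:83116516-83116765, plus strand): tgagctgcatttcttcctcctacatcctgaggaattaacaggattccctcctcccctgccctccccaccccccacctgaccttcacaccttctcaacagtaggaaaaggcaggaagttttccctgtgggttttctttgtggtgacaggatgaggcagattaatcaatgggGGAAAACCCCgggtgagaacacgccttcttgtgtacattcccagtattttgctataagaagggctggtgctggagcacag
Ccl9 (chr11:83578637-83578886, minus strand): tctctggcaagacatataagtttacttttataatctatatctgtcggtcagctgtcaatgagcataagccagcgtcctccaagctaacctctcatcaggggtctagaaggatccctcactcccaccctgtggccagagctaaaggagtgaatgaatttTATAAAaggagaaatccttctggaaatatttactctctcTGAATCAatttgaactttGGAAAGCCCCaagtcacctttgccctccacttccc
Ccl3 (chr11:83649379-83649628, minus strand): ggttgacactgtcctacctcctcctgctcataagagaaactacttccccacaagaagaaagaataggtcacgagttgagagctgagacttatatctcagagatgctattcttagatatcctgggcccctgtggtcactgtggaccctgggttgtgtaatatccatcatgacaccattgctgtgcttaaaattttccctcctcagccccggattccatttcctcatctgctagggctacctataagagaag
The capitals in Ccl20 are a match to the kappaB consensus at −80 to −71 from the start, and those in Ccl9 are, from left to right, a TATA box at −92 to −87, an AP-1 match at −53 to −47 and a kappaB match at −35 to −26. Searched on both strands, the kappaB consensus was found in 2 of the 5 promoters of these genes and in 3.92% of 32536 promoters of the same length. The AP-1 motif was found in 1 of the 5 and in 6.73% of all. The TATA box was found in 2 of the 5 (Ccl9 and Ccl12) and in 12.3% of all. The core of the interferon response element, read as GAAA, any 2 bases and GAAA again, was found in 0 of the 5 and in 2.98% of all. The Ccl9 promoter also holds the TATA letters on the opposite strand, at −224 to −219 and, overlapping the marked box, at −94 to −89. A match is a description of the letters only. Ccl20, with the lower level in Drp1LiKO, and Ccl9, with the higher one, thus both hold a kappaB match in this window, and Ccl3 holds no match to any of the 4 motifs.

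Each gene is read by 1 probe of 60 bases, except Ccl4, which has 2. The Ccl4 probes overlap by 46 bases, among them atgttttagttataggacgcgtgtctccca, and are therefore 2 readings of the same stretch and not independent. Between probes of different CC ligands the longest shared run was 8 bases and the most matches in an ungapped alignment were 26, over 54 pairs of probes. Against the transcripts themselves the probes could not be compared here.

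Ccl2, Ccl7 and Ccl12 belong to the monocyte chemoattractant proteins, which recruit monocytes through the receptor Ccr2. Ccl2 (probe at chr11:81850650-81850709, mm9, the build of all probe positions below) read 7.09 in untreated control, 5.54 in untreated Drp1LiKO, 8.37 in control with palmitate and 7.33 in Drp1LiKO with palmitate. It was thus highest in control cells given palmitate and lowest in untreated Drp1LiKO cells, and in both conditions the Drp1LiKO array lay below the control array. The genotype difference was −1.56 ± 0.20 in untreated cells, a 2.94-fold lower signal, and −1.04 ± 0.20 with palmitate, a 2.06-fold lower signal. The palmitate difference lies close to the 2-fold line and was −0.93 after quantile normalization. Palmitate arrays read higher than untreated arrays by 1.28 in control and by 1.79 in Drp1LiKO.

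Ccl7 (chr11:81860656-81860715), the neighbour of Ccl2 among these genes, read 0.57, 1.69, 2.80 and 3.45 in the same order of arrays. Here the order differed from that of Ccl2, since the Drp1LiKO array lay above the control array in both conditions and both palmitate arrays lay above both untreated arrays. The genotype difference was 1.12 ± 0.20 in untreated cells and 0.66 ± 0.20 with palmitate, so that it passed 2-fold only without palmitate, and under scaling to the array median it was 0.93 in untreated cells. With palmitate Ccl7 read 4.68-fold higher in control, which ranked 5 among the 8987 genes measured on both arrays that were higher with palmitate, and 3.40-fold higher in Drp1LiKO. On the control palmitate array 3 of the 24 spots around the Ccl7 spot were lit on that array alone, against a mean of 0.129 over all spots of the array, and the part of this in the value was not tested. Ccl12 (chr11:81916710-81916769) read between −7.01 and −5.66, not well above background on any array, and gives no fold, as does Ccl24 (chr5:136046485-136046544), an eosinophil attractant, with levels between −6.46 and −4.70.

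Ccl3, Ccl4 and Ccl5 are inflammatory chemokines made by activated macrophages, T cells and natural killer cells, and they attract monocytes and T cells. All of them read higher in Drp1LiKO than in control in both conditions. Ccl4 (chr11:83478052-83478111) read −4.07 in untreated control, −0.03 in untreated Drp1LiKO, −2.32 in control with palmitate and 0.55 in Drp1LiKO with palmitate. Both Drp1LiKO arrays lay above both control arrays. The genotype difference was 4.05 ± 0.28 without palmitate, 16.5-fold, and 2.87 ± 0.22 with palmitate, 7.31-fold. The second Ccl4 probe (chr11:83478038-83478097) gave 3.97 and 2.67 for the same differences. With normexp background correction the differences of Ccl4 were smaller, 2.62 and 2.24. Among genes measured on both arrays, Ccl4 ranked 11 of the 7987 that were higher in untreated Drp1LiKO and 29 of the 7184 that were higher with palmitate.

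Ccl5 (chr11:83339296-83339355), also known as RANTES, read 0.14, 3.62, 1.30 and 4.44 in untreated control, untreated Drp1LiKO, control with palmitate and Drp1LiKO with palmitate. As with Ccl4, both Drp1LiKO arrays lay above both control arrays, and within a genotype the palmitate array was the higher one. The Drp1LiKO signal was 11.2-fold that of control in untreated cells (3.48 ± 0.20) and 8.80-fold with palmitate (3.14 ± 0.20), at ranks 25 and 19 among the genes that were higher.

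Ccl3 (chr11:83461358-83461417) was the only 1 of the 8 measured genes that was not well above background on every array. Its intensity was 12.1 in untreated control, not well above background, 173 in untreated Drp1LiKO, 128 in control with palmitate and 817 in Drp1LiKO with palmitate, or −5.32, −1.65, −1.72 and 0.80 on the log2 scale. The arrays with either Drp1 loss or palmitate read nearly the same, and the array with both read highest. In untreated cells Ccl3 was at least 8.48-fold higher in Drp1LiKO, and with palmitate it was 5.76-fold higher (2.53 ± 0.21). In control cells it was at least 8.07-fold higher with palmitate, and in Drp1LiKO cells 5.48-fold higher (2.45 ± 0.21). For these bounds the brighter array was set against the dimmest signal that still carried the flag in untreated control. They hold for the main background correction only, since with normexp the log2 difference was 1.54 for genotype in untreated cells and 1.56 for palmitate in control.

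Ccl6 and Ccl9 are ligands of the receptor Ccr1 that macrophages and other myeloid cells make in the mouse. Ccl6 (chr11:83401997-83402056) read −2.34 in untreated control, 0.05 in untreated Drp1LiKO, −2.91 in control with palmitate and −0.70 in Drp1LiKO with palmitate. It was the only member with a lower value on both palmitate arrays, by 0.57 in control and by 0.75 in Drp1LiKO on the log2 scale, neither of which reached 2-fold. Its genotype difference was 2.39 ± 0.21 without palmitate and 2.21 ± 0.24 with it, the latter 1.45 with normexp background correction. Ccl9 (chr11:83388223-83388282) read −1.32, −0.18, −0.30 and 1.18 in the same order. The array with Drp1 loss alone and the array with palmitate alone lay close together, and the array with both was the highest. The genotype difference of Ccl9 was 1.14 ± 0.21 without palmitate and 1.48 ± 0.21 with palmitate, and the first of these was 0.96 under scaling to the array median.

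Ccl20 attracts dendritic cells and lymphocytes through the receptor Ccr6, for which it is the only chemokine ligand. It (chr1:83115500-83115559) read 0.37 in untreated control, −3.34 in untreated Drp1LiKO, 1.53 in control with palmitate and −2.04 in Drp1LiKO with palmitate. Both Drp1LiKO arrays lay below both control arrays, the reverse of Ccl4 and Ccl5. The signal was 13.1-fold lower in untreated Drp1LiKO (−3.71 ± 0.23) and 11.9-fold lower with palmitate (−3.57 ± 0.21), and with normexp background correction the first of these was −2.75. Among genes measured on both arrays it ranked 3 of the 9615 that were lower in untreated Drp1LiKO and 1 of the 9552 that were lower with palmitate. With palmitate Ccl20 read higher in both genotypes, by 1.16 in control and by 1.30 in Drp1LiKO. On the untreated Drp1LiKO array 2 of the 24 spots around that of Ccl20 were lit on this array alone, against a mean of 0.595.

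**Figure D1:**
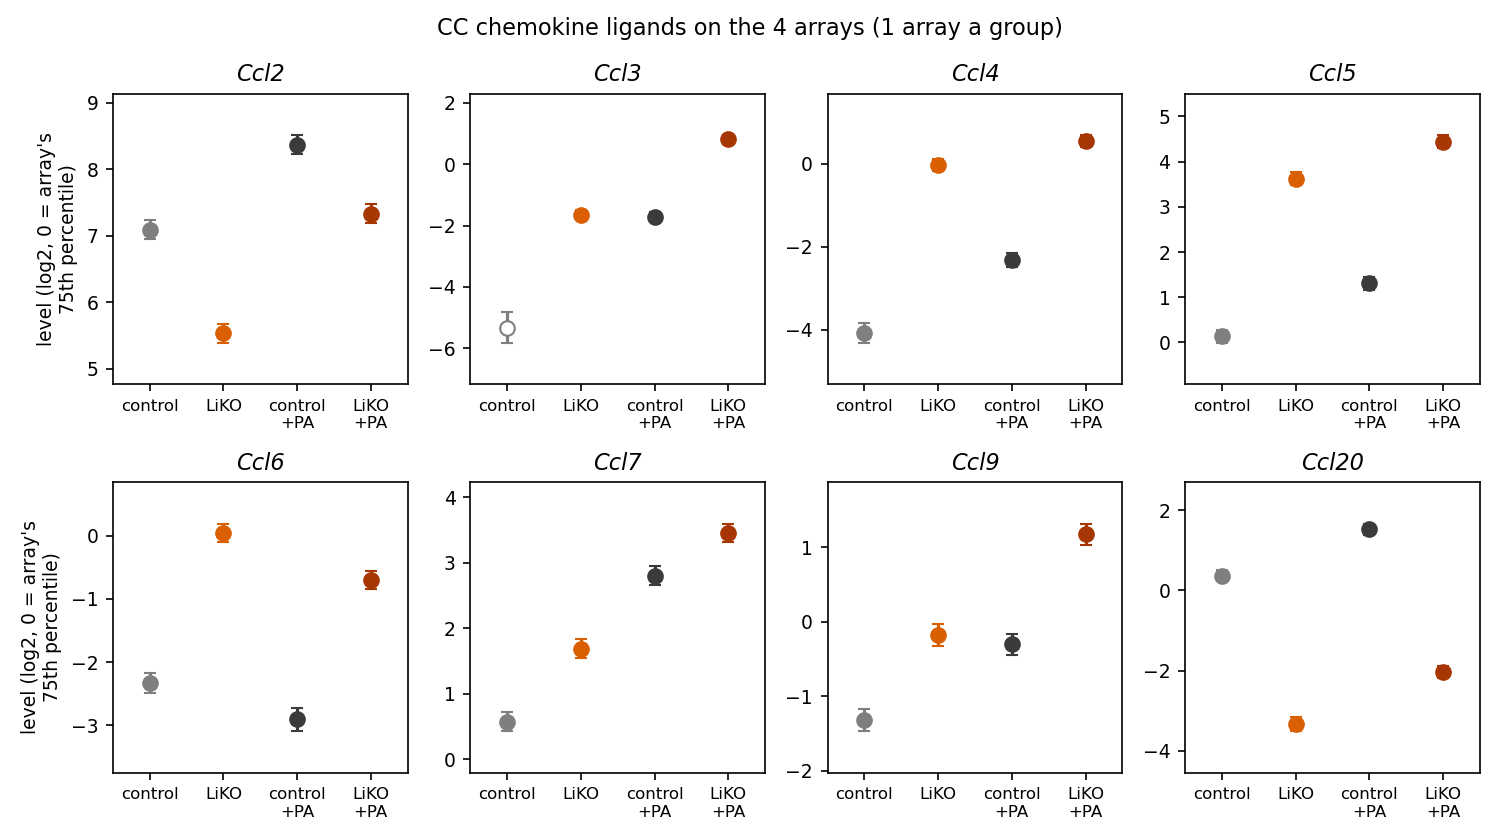
Level of the 8 measured CC ligands on each of the 4 arrays (log2 intensity, 0 is the 75th percentile of the array; PA, palmitate; LiKO, Drp1LiKO; each panel has its own scale). Bars are the scanner software's error of the spot and the open point of Ccl3 was not well above background; Ccl4 and Ccl5 were higher and Ccl2 and Ccl20 lower on the Drp1LiKO array of either condition.

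The genotype comparison in untreated cells asks which ligands differ upon loss of Drp1 without added fatty acid. Of the 8 genes tested, 6 were at least 2-fold higher in Drp1LiKO (Ccl3, Ccl4, Ccl5, Ccl6, Ccl7 and Ccl9), against 8.81% of 19802 genes tested, and 2 were at least 2-fold lower (Ccl2 and Ccl20), against 5.56%. The median difference of the 8 genes was 1.76, and that of all genes −0.02. With palmitate 5 of 8 were higher, against 7.24% of 18820 genes, and 2 of 8 were lower, against 4.21%, with a median of 1.85 beside −0.03 for all genes. Ccl7 was the gene that left the count. After quantile normalization the split with palmitate was 5 higher and 1 lower. Every one of the 8 genes kept the sign of its genotype difference between the conditions, and these pairs of arrays share no array. Whether both arrays of a genotype came from the same animal or cell isolation is not given in the labels, so the pairs may not be independent.

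**Figure D2:**
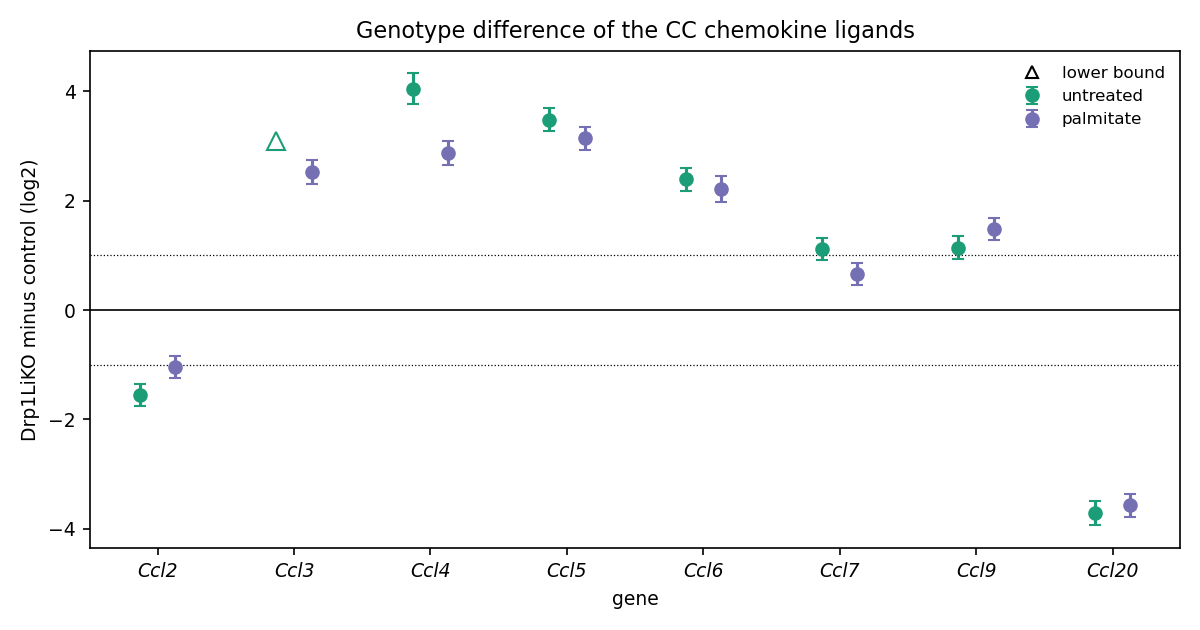
Difference between Drp1LiKO and control (log2) of the 8 measured CC ligands, in untreated cells and with palmitate, with the scanner software's error and dotted lines at 2-fold. The triangle is a lower bound for Ccl3; values run from −3.71 for Ccl20 to 4.05 for Ccl4, both in untreated cells.

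The comparison of palmitate with untreated cells asks which ligands respond to the fatty acid in each genotype. In control 7 of 8 genes were at least 2-fold higher with palmitate, against 2.79% of 18703 genes, and 0 were lower, against 2.83%. The median of the 8 was 1.22, beside 0.01 for all genes. In Drp1LiKO 5 of 8 genes were higher (Ccl2, Ccl3, Ccl7, Ccl9 and Ccl20), against 3.91% of 19676 genes, and 0 were lower, against 3.09%, with a median of 1.33 beside 0.00. Ccl4 and Ccl5 passed 2-fold in control (1.75 ± 0.29 and 1.17 ± 0.20) and not in Drp1LiKO (0.57 ± 0.20 and 0.82 ± 0.20). Ccl9 in control (1.02 ± 0.21) lay at the threshold and was 0.96 under scaling to the array median. With normexp background correction, the values of Ccl4 and Ccl9 in control were 0.91 and 0.88 and that of Ccl20 in Drp1LiKO was 0.81, all under 2-fold.

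**Figure D3:**
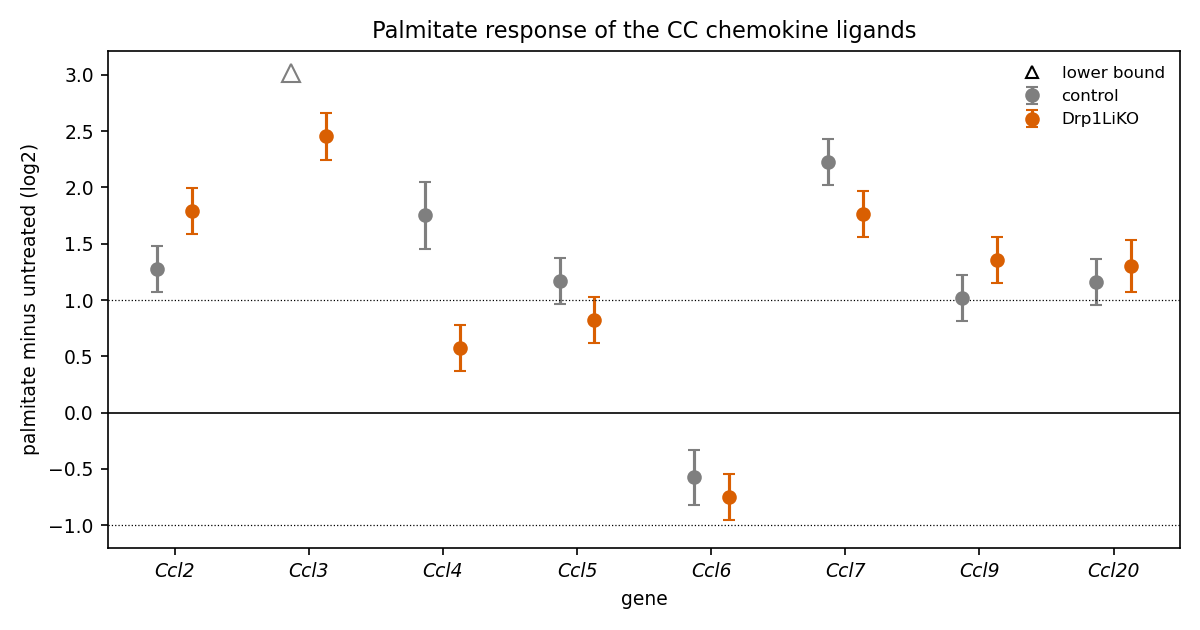
Difference between palmitate and untreated cells (log2) of the 8 measured CC ligands, in control and in Drp1LiKO, with the scanner software's error and dotted lines at 2-fold. The triangle is a lower bound for Ccl3 in control; the other values run from −0.75 for Ccl6 in Drp1LiKO to 2.45 for Ccl3 in Drp1LiKO.

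Whether the response to palmitate differed between the genotypes was read from the response in Drp1LiKO minus the response in control. This uses all 4 arrays, and no error was computed for it. The difference was smaller than 2-fold for 6 of the 8 genes: 0.51 for Ccl2, 0.34 for Ccl9, 0.14 for Ccl20, −0.18 for Ccl6, −0.34 for Ccl5 and −0.46 for Ccl7. It was −1.18 for Ccl4, with −1.30 for its second probe, and −1.15 for Ccl3, where the untreated control value was not well above background. The values −1.18 and −1.15 lie close to the 2-fold line. The scanner errors of the responses in control and Drp1LiKO were 0.29 and 0.20 for Ccl4 and 0.52 and 0.21 for Ccl3. Thus 2 of 8 genes responded less in Drp1LiKO by at least 2-fold, against 5.45% of 20525 genes, and 0 responded more, against 5.25%. The count depended on the processing: it was 1 after quantile normalization and in the authors' table, 1 (Ccl4) with dim values raised to a floor or with Ccl3 left out as dim, and 0 with normexp background correction. For Ccl4 the smaller response went with a level in untreated Drp1LiKO (−0.03) that was already above that of control with palmitate (−2.32).

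An additive model over the 4 arrays, fitted with limma to 20525 genes with genotype and palmitate as terms, leaves 1 residual degree of freedom. At an adjusted p under 0.05, 0 genes (0%) passed for genotype and 0 genes (0%) for palmitate, whereas 5353 and 1996 genes had an unadjusted p under 0.05. The CC ligands gave 0 calls of 8 for either term, and 8 and 7 of them had an unadjusted p under 0.05. For genotype, Ccl20 had a fitted difference of −3.64 ± 0.08 (SE) with a limma adjusted p of 0.118, and Ccl7, at the other end, 0.89 ± 0.17 with 0.163. For palmitate the adjusted p of the 8 genes lay between 0.51 and 0.514. These calls depended on the background correction, on the model of the variance and on the genes fitted, and why they did was not tested. With an intensity trend in the variance 8 of the 8 ligands passed for genotype, where 5341 of all 20525 genes did, and 6 passed for palmitate, where 193 of all genes did. Among genes well above background on all arrays 7 of 7 ligands passed for genotype, where 2594 of 16563 genes did.

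The patterns over the 4 arrays, each centred on its own mean, were compared by Euclidean distance on the log2 scale. Among the 7 genes measured on all arrays, Ccl4 and Ccl5 lay closest (0.47), followed by Ccl7 and Ccl9 (1.00), and Ccl4 and Ccl20 lay farthest apart (7.13). Outside the family, over 16556 genes, the gene closest to Ccl4 was Oas1f (0.29) and the gene closest to Ccl5 was Ifit1 (0.42), both from families of interferon-induced genes. Ccl6 lay closest to Tyrobp (0.05), which encodes a signalling adaptor of myeloid cells, and Ccl9 to Coro1a (0.16), which encodes an actin-binding protein of leukocytes. The 4 differences of Tyrobp were 2.32, 2.24, −0.61 and −0.69, beside 2.39, 2.21, −0.57 and −0.75 for Ccl6 (genotype untreated, genotype with palmitate, palmitate in control, palmitate in Drp1LiKO). Ccl20 lay closest to Avpr1a (0.70), a vasopressin receptor gene, which differed by −3.37 and −3.15 between the genotypes. The nearest entries to Ccl2 and Ccl7 (0.50 and 0.57) were transcripts without a gene symbol. With 4 points per gene, such distances describe these arrays only.

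Of 13 other CC ligand genes listed, 11 were on the array and 5 were well above background anywhere. Ccl25 and Ccl27a, measured on all 4 arrays, had genotype differences of −0.22 and 0.06 without palmitate and of −0.36 and 0.23 with it. Ccl1 was above background in untreated control alone, and Ccl17 and Ccl26 in control with palmitate alone. Over this list 0 of 3 genes tested were higher and 0 lower in untreated Drp1LiKO, 0 of 4 higher and 2 lower with palmitate, 2 of 5 higher and 1 lower with palmitate in control, and 0 of 2 changed in Drp1LiKO. These counts, like those of the lists that follow, use measured values, and where a probe was dim on 1 array the bound can be smaller or absent. For Ccl17 and Ccl26, the genes that were lower in Drp1LiKO with palmitate, the bound was −0.71 and −0.85. For palmitate in control the bound was 0.93, under 2-fold, for Ccl17 and 1.07 for Ccl26, and Ccl1, the lower gene, had none.

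The receptors of these ligands sit on the leukocytes they attract. Of 11 CC receptor genes, only 2 (Ccr7 and Ccr8) carried the flag on any array, so that Ccr1, Ccr2 and Ccr6, which bind ligands described above, did not. Ccr7, a homing receptor of T cells and mature dendritic cells, carried it in Drp1LiKO with palmitate alone. Its palmitate difference in Drp1LiKO was at least 0.66, under 2-fold, and its genotype difference with palmitate has no bound, so that neither is given as a change. For genotype without palmitate 0 of 1 receptor tested passed 2-fold. Of 4 atypical and decoy receptor genes, which bind chemokines without attracting cells, 3 were tested and had higher measured values in Drp1LiKO in both conditions. Of these, Ackr1 in untreated cells and Ackr2 with palmitate were dim in control, with bounds of 0.67 and 0.94, under 2-fold. Ccrl2, measured on all arrays, read −1.89, −0.76, −2.02 and −0.56, with genotype differences of 1.13 and 1.46. With palmitate Ackr1, a chemokine sink of red cells and venules, was higher by 1.52 in Drp1LiKO, and in control by a bound of 0.83, under 2-fold.

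Many CC ligand genes are targets of NF-κB, and 12 genes of its subunits, inhibitors and inducing cytokines were listed beside them. In untreated cells 2 of 11 tested were higher in Drp1LiKO and 0 lower, with a median of −0.13, and with palmitate 3 of 12 were higher and 0 lower, with a median of 0.04. Those past 2-fold in both conditions were Il1b and Il6, cytokines of the acute inflammatory response. Il1a, counted with palmitate alone, was dim in control, with a bound of 0.68, under 2-fold. With palmitate against untreated 3 of 11 were higher in control (Il1b, Il6 and Nfkbiz) and 4 of 12 in Drp1LiKO (those and Il1a), and 0 were lower in either. Nfkbia, which encodes an inhibitor of NF-κB, had differences of the same sign as Ccl2: it differed by −0.94 and −0.71 between the genotypes and by 0.60 and 0.83 with palmitate. Tnf differed by less than 2-fold in all 4 comparisons.

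Markers of other liver cells moved with genotype as well. Of 19 macrophage markers 16 were well above background on at least 1 array, and Timd4, Cd163 and Cx3cr1 on none. In untreated cells 12 of 16 tested were at least 2-fold higher in Drp1LiKO and 0 lower, with a median of 2.21, and with palmitate 11 of 15 were higher and 0 lower, with a median of 1.69. Clec4f and Fcgr1 were dim in control in both conditions. Their bounds were 2.38 and 1.65 in untreated cells and 0.63 and 0.53, under 2-fold, with palmitate. Vsig4 in untreated cells and C1qa, C1qb and C1qc with palmitate were also dim in control, with bounds past 2-fold. The summed macrophage level, in units of the array's 75th percentile, was 32.1 in untreated control, 63.4 in untreated Drp1LiKO, 39.4 in control with palmitate and 61.7 in Drp1LiKO with palmitate. The summed level of the CC ligands was 141, 65.3, 345 and 200 in the same order. Most of each sum came from Ccl2, itself lower in Drp1LiKO, which had the highest level of these ligands on every array. The lower sums in Drp1LiKO therefore follow Ccl2 and do not describe the family. Of the 8 genes tested, 6 read higher in Drp1LiKO in both conditions. Adgre1, which encodes a surface antigen of mouse macrophages, differed by 2.44 and 2.10, Cd68 by 2.01 and 1.69, and Cd14 by 0.22 and 0.05. The higher levels of Ccl3, Ccl4, Ccl5, Ccl6, Ccl7 and Ccl9 in Drp1LiKO therefore ran with those of macrophage markers, whose part in them was not tested. In such bulk samples, a change in the number of cells of a type and a change of RNA per cell cannot be told apart. Ccl2 and Ccl20 differed in the opposite direction from the median of these markers in both conditions.

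With palmitate the macrophage markers split otherwise than the ligands, with 2 of 13 higher and 4 lower in control and 1 of 16 higher and 6 lower in Drp1LiKO. Cd5l, a Kupffer cell gene, differed by −1.99 and −3.07, and Marco, a scavenger receptor gene of macrophages, was higher by 3.59 and 2.77. Among the ligands Ccl6 alone read lower on both palmitate arrays.

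Endothelial markers were higher in 10 of 12 and stellate cell markers in 6 of 9 tested in untreated Drp1LiKO, with 0 and 1 lower and medians of 2.02 and 3.02. Among the higher ones Tek, Lyve1 and Erg (endothelial) and Lrat, Col3a1 and Pdgfrb (stellate) were dim in control. They were tested only because the Drp1LiKO array carried the flag, and their measured values raise both medians. The bounds were 0.26, 1.89 and 0.98 for the endothelial and 2.86, 2.98 and 2.22 for the stellate genes. With palmitate 7 of 11 and 5 of 8 were higher, and 1 and 0 lower. Of the higher ones, Lyve1, Erg, Col3a1, Pdgfrb and Reln were dim in control. Lyve1 and Pdgfrb had bounds of 0.21 and 0.71, under 2-fold, and Erg had none. Col3a1 and Reln had bounds of 2.20 and 1.26. Tek, the lower gene, was dim in Drp1LiKO, with a bound of −1.02. Summed endothelial levels were 1.80, 5.65, 1.71 and 3.61 and summed stellate levels 54.8, 67.2, 57.2 and 66.3, in the order given for macrophages. Such sums are carried by the brightest genes of a list. In the stellate list the brightest on every array was Acta2, which read between 5.46 and 5.69 and differed by 0.22 and 0.02 between the genotypes. With palmitate against untreated, endothelial markers were higher in 1 of 10 and lower in 0 in control and lower in 4 of 12 in Drp1LiKO, and stellate markers changed in 0 of 6 and were lower in 1 of 9. Among the endothelial markers lower in Drp1LiKO, Tek was dim with palmitate, with a bound of −0.04, under 2-fold. Neutrophil markers, of which S100a9, Mpo and Retnlg were not well above background anywhere, were higher in 1 of 3 in untreated Drp1LiKO and in 2 of 4 with palmitate, lymphocyte markers in 0 of 2 and 2 of 4, dendritic cell markers in 0 of 0 and 1 of 1, and cholangiocyte markers in 1 of 4 and 0 of 4, none lower. Among these, Ly6g in both conditions, Krt7 in untreated cells and Ms4a1, Cd79a and Zbtb46 with palmitate were dim in control. The bounds were 2.28 and 1.42 for Ly6g, 1.64 for Cd79a and 0.46, under 2-fold, for Ms4a1. Krt7 and Zbtb46 had no bound, so neither is given as a change. Hepatocyte markers were higher in 2 of 11 and 3 of 11, none lower, with medians of 0.20 and 0.28. Pck1, counted with palmitate, was dim in control, with a bound of 0.03, under 2-fold. Summed levels of the hepatocyte markers were 1250, 1285, 1236 and 1316, and Alb, which encodes albumin, read between 8.73 and 9.03.

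**Figure D4:**
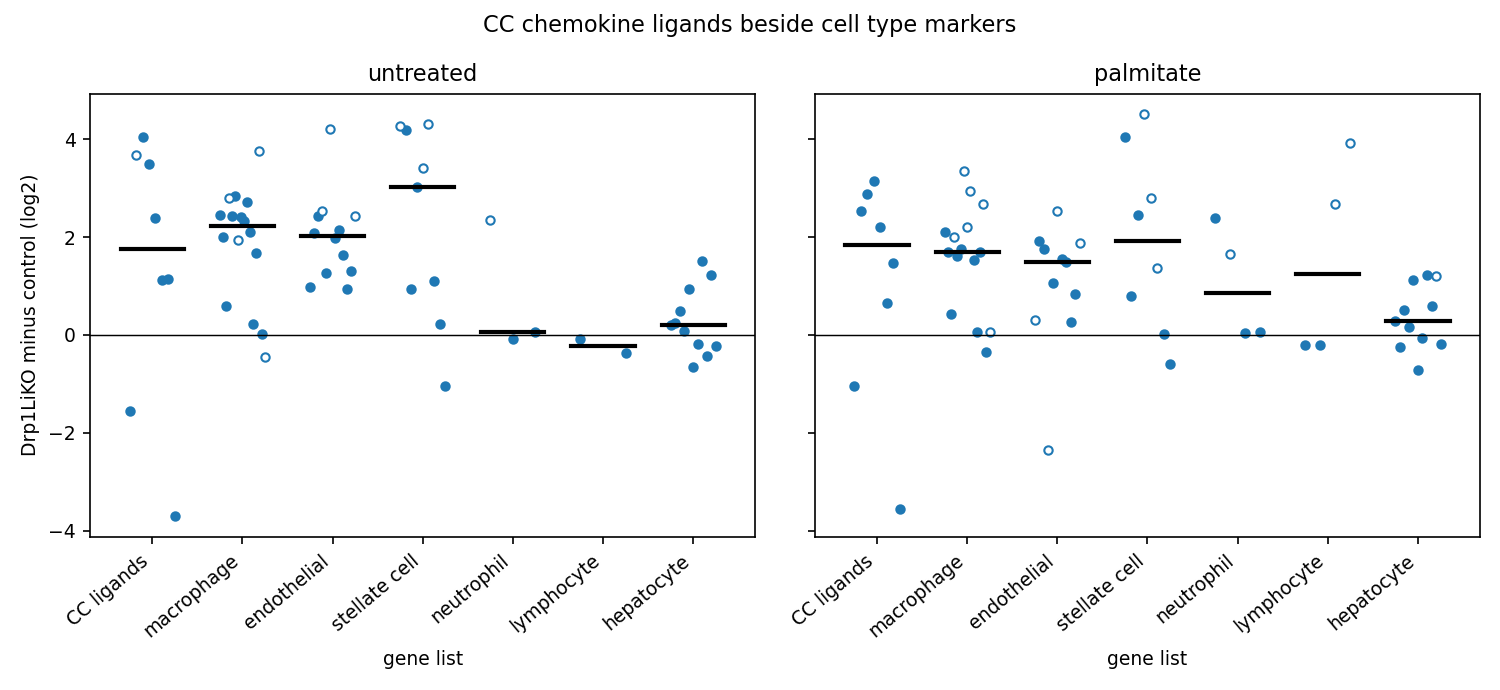
Difference between Drp1LiKO and control (log2) of each CC ligand and of marker genes of liver cell types, for genes whose probe was well above background on either array. Filled points were measured on both arrays, open points on 1 (own value shown, not the bound) and lines are medians; in untreated cells the median was 1.76 for CC ligands, 2.21 for macrophage and 0.20 for hepatocyte markers, and 2 ligands, Ccl2 and Ccl20, lay below 0.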

How the data were processed

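The authors deposited 1 scanner table per array, with background-subtracted and spatially corrected intensity on a linear scale, written by Feature Extraction 10.7.1.1 per the file headers; the submitters' processing notes name 9.5.1.1. A deposited table of processed intensity matched a quantile normalization of these signals and served as an alternative. Labels and methods name different RNA extraction kits.

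From log2 of the processed signal, the 75th percentile over the non-control spots of the same array was subtracted. Outlier spots were left out and repeat spots averaged. A gene stood by its probe with the highest mean among those well above background somewhere. Changed meant a log2 difference of at least 1 with the probe well above background on either array. The additive model used limma 3.58.1 (lmFit, eBayes, two-sided, Benjamini-Hochberg) in R 4.3.3, other steps Python 3.11.15, and the fit was tested on simulated data. Named were all 10 ligands, Dnm1l, genes of the fixed lists and the nearest gene by distance. The members and lists were chosen with earlier results of these data known.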

Additional observations from a re-analysis of the deposited data

How the results depend on the processing

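Arrays could not be paired by animal or culture, because each group has 1 array and the labels give no replicate numbers. The limma fit did compare the genotypes within each palmitate condition, which is also within each slide. No array could be left out of a difference between 2 arrays. No called difference of a CC ligand changed sign under any alternative run, which were median scaling, quantile normalization, the authors' table, normexp, stricter and no filters on dim probes, a floor, and the mean of all probes. Of the 32 differences (8 genes in 4 comparisons), normexp moved 10, among them Ccl4 (2.62), Ccl20 (−2.75) and Ccl3 (1.54) for genotype in untreated cells. Scaling to the median moved 3 and shifted the median genotype difference of all genes to −0.20 in untreated cells and −0.17 with palmitate. Quantile normalization and the authors' table each moved 1, Ccl2 with palmitate (−0.93 and −0.95). The number of ligands whose palmitate response differed 2-fold between genotypes, 2, was 1 after quantile normalization, 1 with the authors' table, 1 for probes well above background on all arrays, 1 where dim values were raised to a floor and 0 with normexp. The number called by limma for genotype, 0, was 7 with normexp (1534 of all 20525 genes), 7 of 7 among probes well above background on all arrays (2594 of 16563) and 8 with an intensity trend (5341 of 20525), and for palmitate it was 6 with the trend (193 of 20525); the cause was not tested. Over all genes, 2846 changed 2-fold with genotype in untreated cells, 1043 with normexp, 1375 with probes well above background on both arrays and 4637 without a filter. Signal over background limits Ccl3 in untreated control to a bound and leaves Ccl12 and Ccl24 without a fold.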
